A study of Mus musculus with 14 samples.

Results

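The cytochrome P450 genes of families 1 to 4 were followed through liver injury in RNA from sorted liver sinusoidal endothelial cells (LSECs), the fenestrated cells that line the liver's capillaries. The members were chosen by name alone, as every protein-coding gene of GENCODE vM21 whose symbol is Cyp, a family number from 1 to 4, a letter and a number. They came to 75 of the 54524 genes in the count table, with 3 in family 1, 48 in family 2, 7 in family 3 and 17 in family 4. Healthy LSECs (n = 4 samples) came from male Balb/c mice that received no injection, and LSECs after injury came from male Balb/c mice killed at day 1 (n = 2), day 3 (n = 4) or day 7 (n = 4) after an intraperitoneal dose of 0.5 µl carbon tetrachloride (CCl4) per g body weight in mineral oil. The labels give an age of 10 to 12 weeks for all mice, and the study's methods give a somewhat older range. No mouse was injected with oil alone, so the effect of the injection and that of CCl4 cannot be told apart. Cells were sorted as CD32+ and F4/80-, without UV autofluorescence and without propidium iodide, with CD45 as a further negative marker in the study's methods, and RNA was taken without culture. The methods state that 2 other day 1 samples were left out for low RNA integrity.

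P450 enzymes are haem proteins of the endoplasmic reticulum that insert an oxygen atom into their substrates with electrons from the reductase Por. Families 1 to 3 are best known for the breakdown of drugs and other foreign compounds in hepatocytes, and members of the 2C, 2J and 4 groups also oxidise arachidonic acid and other fatty acids, in vessels as well as in the liver. CCl4 is harmless until a P450, chiefly Cyp2e1 of the hepatocytes around the central vein, turns it into a radical. RNA of hepatocyte P450 genes in a sorted endothelial fraction may come from hepatocytes or their fragments, so the level of other hepatocyte genes is given beside each result. In bulk RNA of this kind, fewer cells of a type and less RNA per cell cannot be told apart.

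Between 46401496 and 103912264 reads were counted on genes per sample, and levels are given as CPM, counts relative to the library size after TMM scaling. The hepatocyte score of a sample was the mean log2 CPM of 15 hepatocyte genes outside the P450 families, such as Alb (albumin) and Ttr (transthyretin). It was 4.30, 3.86, 4.80 and 9.09 in healthy LSECs, 0.887 and 2.91 at day 1, 5.71, 6.81, 7.31 and 6.34 at day 3, and 7.71, 8.50, 5.65 and 7.18 at day 7. Healthy sample 4 therefore stood far above the 3 other healthy samples and above every injured one, and the 2 day 1 samples were the lowest of all. The score did not differ from healthy LSECs beyond the spread between samples at day 1 (by -3.61, p = 0.133, two-sided exact permutation test, smallest possible p 0.0667), day 3 (1.03, p = 0.457, smallest possible p 0.0286) or day 7 (1.75, p = 0.286). Without healthy sample 4, day 3 lay above healthy LSECs by 2.22 (p = 0.0286, exact permutation test). The 14 LSEC markers summed to between 12300 and 24650 CPM in the 14 samples, with healthy samples at 20170 to 24650 CPM and injured ones at 12300 to 18150 CPM. The labels do not say whether a sample is 1 mouse or a pool, and no label ties a sample of 1 group to one of another. P-values measure the spread between these samples.

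The P450 genes were unequal in level by orders of magnitude. A gene was taken as detected in a sample at 3 counts or more, a floor that covers counting error only, and between 37 and 61 of the 75 members were detected per sample. The lowest number was in day 1 sample 1 and the highest in healthy sample 4, as were the lowest and highest hepatocyte scores. Per kb of exon, Cyp4b1 was highest, at a mean level of 535.3 CPM per kb over the 14 samples, against 28.5 CPM per kb for Cyp3a11, 22.6 for Cyp2f2, 19.97 for Cyp2e1, 13.1 for Cyp2c70, 12.7 for Cyp3a25, 12.7 for Cyp2d22, 12.2 for Cyp2d10, 9.92 for Cyp2j6 and 9.28 for Cyp2d26. Cyp4b1, a fatty acid and xenobiotic hydroxylase best known from the lung, made up 85.8 to 88.2% of the summed CPM of all members in healthy samples 1 to 3, and 86.8 and 89.0% at day 1. In healthy sample 4 it made up 35.8%, since the other members together reached 3064 CPM there against 243.1 to 316.7 CPM in the 3 other healthy samples. Its share was 62.7 to 75.0% at day 3 and 33.8 to 70.0% at day 7. At 1 CPM or more in every one of the 14 samples were 8 members, namely Cyp1a1, Cyp2d22, Cyp2j6, Cyp2j9, Cyp4b1, Cyp4f13, Cyp4f16 and Cyp4v3. Cyp4f18 joined them in both day 1 samples.

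**Figure D1:**
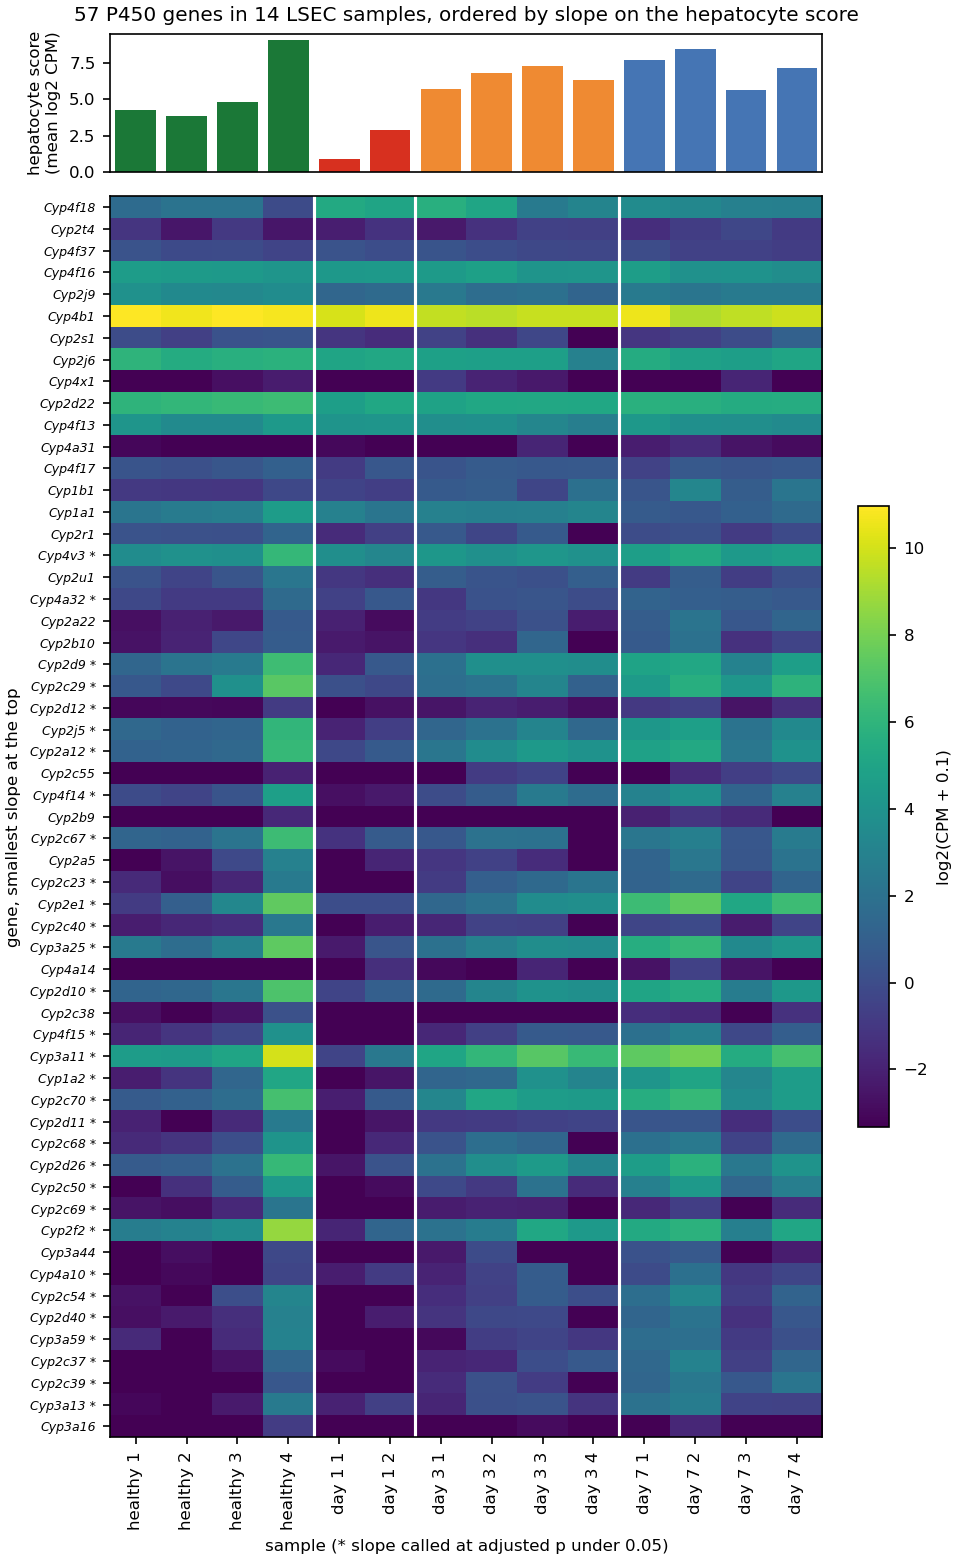
The upper panel shows the hepatocyte score of each sample (mean log2 CPM of 15 markers) and the heat map shows log2(CPM + 0.1) of the 57 members tested, 1 row per gene and 1 column per sample, with the smallest slope on the score at the top and an asterisk where the slope was called. Rows with an asterisk are brightest in healthy sample 4 among the healthy columns, while the rows of Cyp4b1, Cyp2d22 and Cyp2j6 stay bright in all groups.

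To ask which P450 genes varied with hepatocyte RNA and which did not, the slope of each gene's log2 level on the hepatocyte score was fitted within groups, with the 4 group means in the model. A slope of 1 means that the gene varied in proportion to the hepatocyte markers, and a slope of 0 that it did not vary with them. Of the 57 members that passed the filter on low counts, 31 had a slope above 0 at an adjusted p under 0.05 (edgeR quasi-likelihood test, Benjamini-Hochberg over 26626 genes), or 54.4%, and none below 0. Of all genes tested, 2.33% were called on this slope and 2.32% with a slope above 0. The median slope was 1.01 over the tested members and -0.01 over all genes. Called slopes ran from 0.37 to 1.46, and for 28 of the 31 the 95% interval held 1. The called members included 11 of 13 tested Cyp2c genes, 6 of 7 Cyp2d genes, 4 of 6 Cyp3a genes, 2 of 4 Cyp4a genes and 2 of 7 Cyp4f genes, as well as Cyp1a2, Cyp2a12, Cyp2e1, Cyp2f2, Cyp2j5 and Cyp4v3.

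Cyp3a11, the main inducible drug-metabolising P450 of mouse liver, followed the score most closely among the abundant members. Its level was 23.7, 21.7, 32.3 and 1042 CPM in healthy LSECs, 0.670 and 5.22 CPM at day 1, 33.0, 70.9, 152 and 79.7 CPM at day 3, and 173, 247, 44.7 and 108 CPM at day 7. Healthy sample 4 was thus over all other samples and both day 1 samples lay below the rest. The slope was 1.10 (95% interval 0.97 to 1.23, adjusted p = 1.8e-07). Cyp2f2, a P450 of periportal hepatocytes, was at 6.54, 8.06, 11.9 and 405 CPM in healthy LSECs, 0.179 and 2.42 CPM at day 1, 4.10, 6.31, 36.3 and 21.3 CPM at day 3, and 41.2, 57.05, 7.05 and 34.2 CPM at day 7, with a slope of 1.20 (0.93 to 1.46, adjusted p = 3.58e-05). The same was seen for Cyp2c70, which makes the muricholic acids of mouse bile (slope 1.15, 0.97 to 1.33), for Cyp3a25 (1.07, 0.89 to 1.25), and for Cyp2d10 (1.08, 0.90 to 1.26) and Cyp2d26 (1.15, 0.98 to 1.33) of the Cyp2d cluster. Cyp1a2, the caffeine-oxidising P450 of the liver, was at 0.120 to 35.4 CPM in healthy LSECs, at 0 and 0.0771 CPM at day 1, and at 9.24 to 32.4 CPM at day 7, with a slope of 1.11 (0.70 to 1.51). The largest slopes were those of Cyp3a16 (2.06, 0.82 to 3.30, adjusted p = 0.278, not called), Cyp3a13 (1.46, 1.10 to 1.83), Cyp2c39 (1.42, 0.72 to 2.12), Cyp2c37 (1.33, 0.75 to 1.92) and Cyp2d40 (1.28, 0.78 to 1.78), all at low levels.

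The slopes leaned on 1 library. All 31 called members were highest in healthy sample 4 among the healthy samples, there at 3.97 times the next healthy sample or more (median 22.2 times). Without that sample, 9 members kept their call (0.536% of all genes tested were called then), namely Cyp2a12, Cyp2c70, Cyp2d9, Cyp2d10, Cyp2d26, Cyp2f2, Cyp2j5, Cyp3a11 and Cyp3a25. The median slope of the same 31 members was 1.07 without it, with a range from 0.11 to 1.70. Reads of close relatives add to this limit. Of the 50-base words in the annotated transcripts of Cyp2c40, Cyp2c67, Cyp2c68 and Cyp2c69, 60.3, 52.8, 43.3 and 54.3% also occur in another gene, so levels of single genes in this cluster are uncertain, whereas the share is 6.73% for Cyp3a11, 3.87% for Cyp2e1 and 8.26% for Cyp4b1, which shares words with its own pseudogenes.

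**Figure D2:**
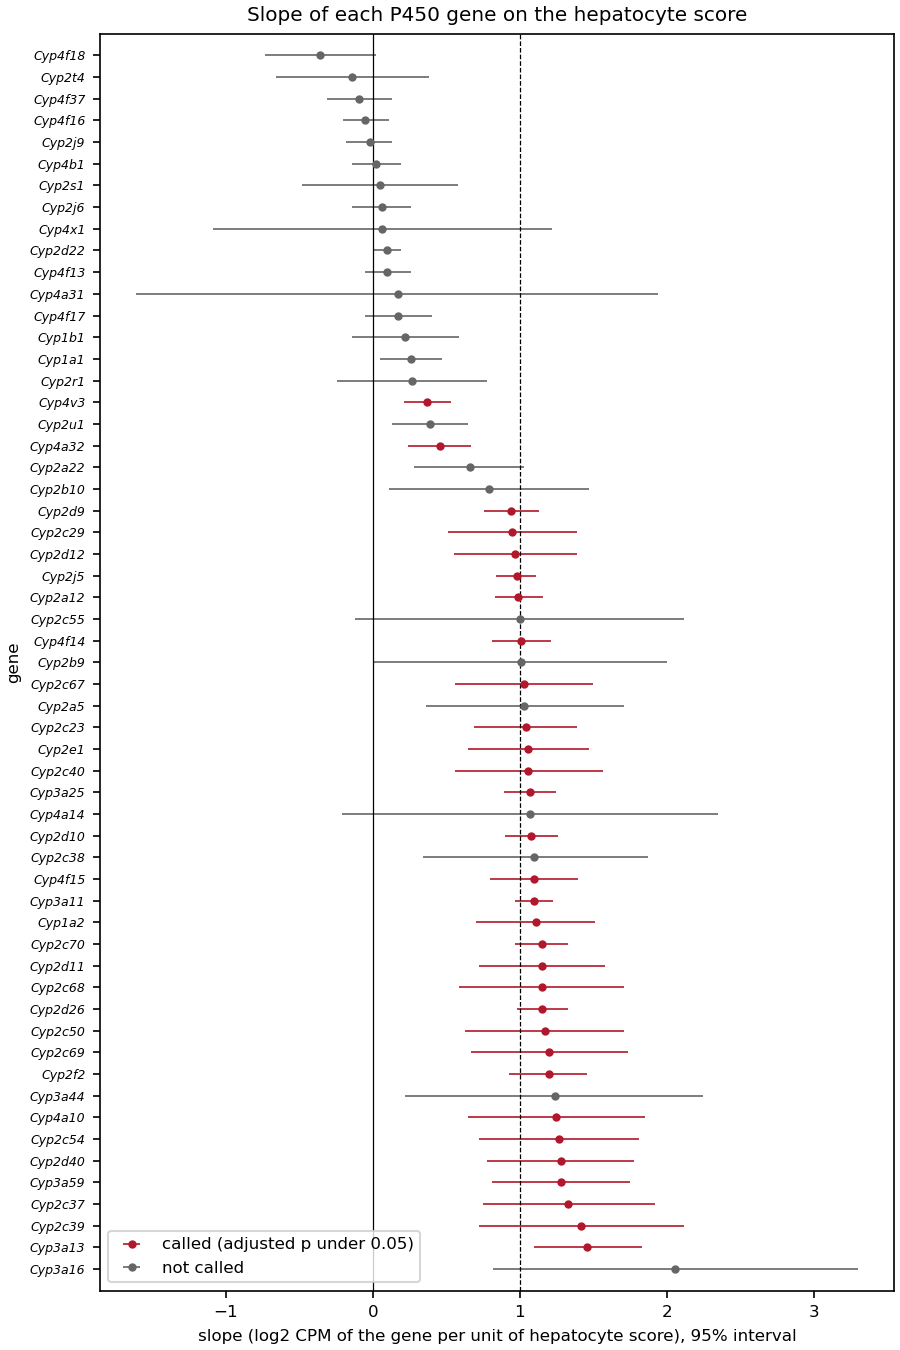
Points give the slope of each of the 57 tested members on the hepatocyte score (log2 CPM per unit of score) and bars its 95% interval, with called members in red, a solid line at 0 and a dashed line at 1. Most called members gather around 1, and Cyp4v3 (0.37) and Cyp4a32 (0.46) are the called members between the lines.

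Promoter sequence was looked at because hepatocyte P450 genes share binding sites for liver nuclear receptors. RefSeq's table for GRCm38.p6 holds a promoter for 62 of the 75 members, and the 250 bases before each start were searched on both strands for CAAAGTCCA, a common form of the site of HNF4, the receptor that maintains hepatocyte expression. It was present in 0.381% of 27025 promoters and in 8 of the 62 members (12.9%), all in the Cyp2c and Cyp3a groups. Of these, 6 were among the 27 promoters of members called on the slope, 1 (Cyp3a16) among the 20 of the other tested members, and Cyp2c65 was not tested. The windows are printed with 20 bases on each side and the match in capitals, 5′ to 3′ on the gene's strand. They show how alike Cyp2c40, Cyp2c67, Cyp2c68 and Cyp2c69 are around the match, and how Cyp2c65, Cyp2c70 and the Cyp3a genes differ from these. They lie on the minus strand at chr5:145879935-145879983 (Cyp3a11), chr5:145469794-145469842 (Cyp3a16), chr19:40187322-40187370 (Cyp2c70), chr19:39812831-39812879 (Cyp2c40), chr19:39886816-39886864 (Cyp2c69), chr19:39741150-39741198 (Cyp2c68) and chr19:39649139-39649187 (Cyp2c67), and on the plus strand at chr19:39060870-39060918 (Cyp2c65).
Cyp3a11: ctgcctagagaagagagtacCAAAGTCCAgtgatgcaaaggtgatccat
Cyp3a16: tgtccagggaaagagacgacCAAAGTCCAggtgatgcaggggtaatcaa
Cyp2c70: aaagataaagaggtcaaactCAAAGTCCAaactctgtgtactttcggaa
Cyp2c40: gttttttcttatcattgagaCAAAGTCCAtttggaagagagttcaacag
Cyp2c69: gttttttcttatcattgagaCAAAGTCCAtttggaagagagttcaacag
Cyp2c68: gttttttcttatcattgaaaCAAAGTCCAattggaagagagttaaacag
Cyp2c67: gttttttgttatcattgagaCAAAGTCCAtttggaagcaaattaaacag
Cyp2c65: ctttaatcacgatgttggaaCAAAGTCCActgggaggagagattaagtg
The match began 109 bases before the start in Cyp3a11, 64 in Cyp2c70 and 45 in Cyp2c40. The windows of Cyp2c40 and Cyp2c69 are the same in every base, so the 8 promoters are not independent examples. GGAAG, a core of ETS factor sites, overlaps none of the matches but lies next to them in the windows of Cyp2c40, Cyp2c67, Cyp2c68 and Cyp2c69. A match of letters does not show that a factor binds there.

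Cyp2e1, the enzyme that activates CCl4, was set against Alb in the same sample. Such a ratio does not depend on how much hepatocyte RNA a sample holds, as long as both RNAs vary with it in proportion. Its level was 0.449, 1.89, 9.57 and 174 CPM in healthy LSECs, 0.921 and 0.925 CPM at day 1, 2.67, 4.08, 12.2 and 13.1 CPM at day 3, and 87.8, 173, 36.5 and 86.3 CPM at day 7. All 4 day 7 samples were above all 4 day 3 samples, and healthy samples spanned both. The slope on the hepatocyte score was 1.06 (0.65 to 1.47, adjusted p = 0.00543), and 0.78 (adjusted p = 1) without healthy sample 4. Per 1000 counts of Alb, Cyp2e1 had 4.70, 27.5, 77.0 and 66.7 counts in healthy LSECs, 74.8 and 15.5 at day 1, 10.8, 7.08, 10.1 and 13.98 at day 3, and 60.6, 64.3, 130 and 113 at day 7. The day 1 ratios differed through Alb, at 12.3 and 59.8 CPM, while Cyp2e1 was low and nearly equal in both samples. The log2 ratio was higher by 3.09 at day 7 than at day 3 (p = 0.0286, two-sided exact permutation test, the smallest p that 4 samples against 4 can give, higher in 4 of 4 samples). This was 1 of 4 comparisons of the ratio. Against healthy LSECs, in exact permutation tests, the ratio differed by 0.25 at day 1 (p = 0.933), by -1.48 at day 3 (p = 0.2) and by 1.61 at day 7 (p = 0.171). Healthy sample 1 had the lowest ratio of all, and without it the day 3 difference was -2.35 (p = 0.0286, exact permutation test). In the edgeR test across all genes, Cyp2e1 itself was not called at day 7 against day 3 (log2 fold change 3.58 ± 1.34 (SE), adjusted p = 0.193), nor with the hepatocyte score as a covariate (2.73 ± 0.72 (SE), adjusted p = 0.0948). DESeq2 did not call it either, while limma voom did, among 7 members (22.5% of all genes were called there). The promoter of Cyp2e1 at chr7:140763569-140763818 (plus strand) is printed to show that its only match to the motifs searched is the TATA box in capitals, TATAAA, 31 bases before the start, a motif held by 3504 of the 27025 promoters and by 24 of the 62 members.
Cyp2e1: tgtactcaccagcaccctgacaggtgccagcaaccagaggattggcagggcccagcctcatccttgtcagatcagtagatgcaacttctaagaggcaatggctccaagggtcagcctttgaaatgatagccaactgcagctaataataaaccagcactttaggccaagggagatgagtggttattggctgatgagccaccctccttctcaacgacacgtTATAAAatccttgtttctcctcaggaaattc

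**Figure D3:**
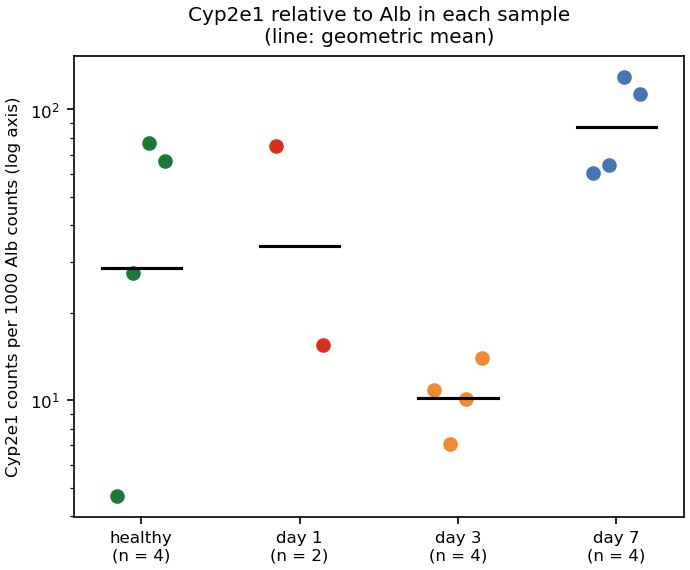
Each point is the number of Cyp2e1 counts per 1000 Alb counts in 1 sample on a log axis, by group, and lines are geometric means. The 4 day 3 samples lie between 7.08 and 13.98, the 4 day 7 samples between 60.6 and 130, and the healthy samples between 4.70 and 77.0.

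Members with no called slope on the hepatocyte score were led in level by Cyp4b1. For 11 of the 26 tested members with no call, the whole 95% interval of the slope lay under 0.5, namely Cyp1a1, Cyp2d22, Cyp2j6, Cyp2j9, Cyp2t4, Cyp4b1, Cyp4f13, Cyp4f16, Cyp4f17, Cyp4f18 and Cyp4f37. The intervals of Cyp1a1 (0.05 to 0.47) and Cyp2d22 (0.01 to 0.19) among these lay above 0. Another 9 of the 26 had slopes of 0.5 or more with intervals too wide for a call, so a missing call does not place a gene outside hepatocytes. The smallest slopes were those of Cyp4f18 (-0.36, -0.73 to 0.02), Cyp2t4 (-0.14, -0.66 to 0.38), Cyp4f37 (-0.09, -0.31 to 0.13), Cyp4f16 (-0.05, -0.20 to 0.11) and Cyp2j9 (-0.02, -0.18 to 0.13). Cyp4f16 was at 20.9 ± 2.72 CPM in healthy LSECs (SD, n = 4), 20.3 ± 0.755 CPM at day 1 (n = 2), 20.9 ± 4.88 CPM at day 3 (n = 4) and 17.0 ± 5.47 CPM at day 7 (n = 4), although 17.4% of its 50-base words also occur in other genes. Cyp4v3 lay between, with a slope of 0.37 (0.21 to 0.53) and 71.7 CPM in healthy sample 4 against 12.2 to 14.8 CPM in the 3 other healthy samples.

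**Figure D4:**
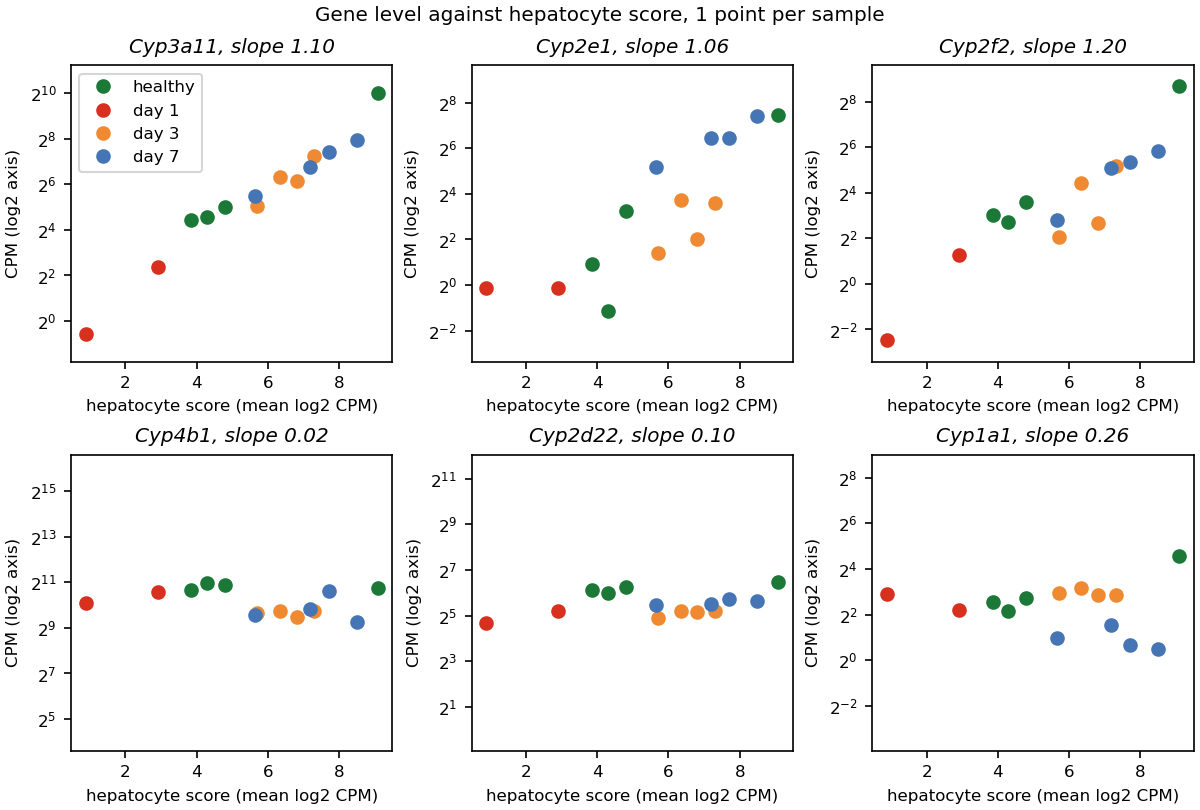
Each point is 1 sample, with the hepatocyte score on the x axis and the CPM of the gene on a log2 axis that spans the same number of doublings in each panel. Cyp3a11, Cyp2e1 and Cyp2f2 climb with the score (slopes 1.10, 1.06 and 1.20), Cyp4b1 and Cyp2d22 are nearly flat (0.02 and 0.10), and Cyp1a1 is lower at day 7 than in the other groups at any score.

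Cyp4b1 (ENSMUSG00000028713, chr4:115624725-115647723, minus strand, GRCm38) had 1974, 1599, 1913 and 1706 CPM in healthy LSECs, 1091 and 1539 CPM at day 1, 807.5, 711.4, 853.5 and 862.7 CPM at day 3, and 1555, 615.3, 760 and 919 CPM at day 7. Every injured sample was below every healthy one, both day 1 samples included. It fell by 1.15 on the log2 scale at day 3 (SE 0.25, adjusted p = 0.0165, edgeR), while the change was -0.45 ± 0.31 (SE) at day 1 (adjusted p = 0.512) and -0.90 ± 0.25 (SE) at day 7 (adjusted p = 0.0683). The slope on the hepatocyte score was 0.02 (-0.14 to 0.19). The LSEC markers as a whole were lower after injury too: with library sizes scaled to their summed counts, the difference in Cyp4b1 at day 3 was -0.55 (adjusted p = 0.0746), while the median of all genes went from 0.18 to 0.80. Its slope on the stellate cell score, the mean log2 CPM of 11 stellate markers, was -0.30 (-0.48 to -0.12, adjusted p = 0.313), and the part of stellate cell RNA in the result was not tested. The call at day 3 held without any single sample. The promoter of Cyp4b1 at chr4:115647722-115647971 (minus strand) held none of the 5 motifs searched on both strands. These were the HNF4 site, the TATA box and the ETS core, as spelled above, with GTTAAT of HNF1 (6.52% of all promoters) and the aryl hydrocarbon receptor core GCGTG. The ETS core was in 63.6% of all promoters and is not capitalised. It is printed as the promoter of the P450 gene with the highest level here.
Cyp4b1: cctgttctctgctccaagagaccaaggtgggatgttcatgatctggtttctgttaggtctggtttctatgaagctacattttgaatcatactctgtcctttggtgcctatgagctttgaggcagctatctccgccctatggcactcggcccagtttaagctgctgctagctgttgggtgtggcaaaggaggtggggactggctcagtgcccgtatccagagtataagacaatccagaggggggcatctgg

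In the comparison of day 1 with healthy LSECs, 3 of 57 tested members were called, against 4.06% of all genes tested. Cyp2d22 and Cyp2j9 fell (1.64% of all genes fell) and Cyp4f18 rose (2.42% of all genes rose). Every day 1 sample lay below every healthy sample for 23 of the 57 tested members (17.9% of all genes tested did so), and 16 of the 23 were called on the slope, such as Cyp3a11 and Cyp2f2. The median log2 fold change was -4.70 over the tested members and -0.03 over all genes, and the 15 hepatocyte markers had a median of -5.10 with 1 called. Cyp3a11 differed by -6.57 ± 1.96 (log2, SE) at an adjusted p of 0.0827. DESeq2 called 26 members (10.5% of all genes tested), 25 of them lower. Without day 1 sample 1, edgeR called 0 members (0.555% of all genes, 14 members at an unadjusted p under 0.05), in a fit where the lone day 1 sample is assumed to vary like the other groups.

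At day 3, 5 members were called against 7.19% of all genes: Cyp2d22, Cyp2j6, Cyp2j9 and Cyp4b1 fell (2.58% of all genes) and Cyp4f18 rose (4.62%). At day 7, 3 members were called against 3.18% of all genes: Cyp1a1 and Cyp2j9 fell (0.992% of all genes) and Cyp1b1 rose (2.19%). None of these 7 genes had a called slope on the hepatocyte score. Members with a called slope were highest in healthy sample 4 among the healthy samples, and most had large standard errors between groups. At day 3 the SE was 1.15 for Cyp3a11 and 1.28 for Cyp2e1, against 0.17 for Cyp2d22 and 0.26 for Cyp2j9. A call was therefore hard to reach for most of them, and the lack of overlap is not a separate result. By edgeR, the shares of members called were near the background, at 8.77% at day 3 and 5.26% at day 1 and at day 7. This covers adjusted calls only. At an unadjusted p under 0.05 were 29 of the 57 tested members at day 1, 10 at day 3 and 10 at day 7. The share of all genes was not taken at that threshold. Unadjusted counts, here and elsewhere, therefore do not show whether members differed more often than other genes. Between day 7 and day 3, a contrast that leaves out the healthy mean although healthy samples enter the fit, edgeR called 0 members against 1.77% of all genes, 9 had an unadjusted p under 0.05, DESeq2 called 1 (6.5% of all genes) and limma voom 7 (22.5%). Cyp1a1 was called in this contrast without healthy sample 1 or without healthy sample 4 (0.68% of all genes in the latter), and a fit of the 2 groups alone called 0 members (0.00451% of all genes), with 20 at an unadjusted p under 0.05. Such fits called 3 members at day 3 (5.14% of all genes) and 5 of 53 tested at day 7 (14.6%). DESeq2 called 8 members at day 3 (14.1% of all genes) and 5 at day 7 (10.2%), and limma voom 25 at day 7 (26.5%). With library sizes scaled to LSEC markers, 3 members were called at day 3 (19.8% of all genes), and with scaling to hepatocyte markers edgeR called 0 at day 3 (0.0976% of all genes) and 0 at day 7 (0.222%), with 10 and 15 at an unadjusted p under 0.05. The comparisons with healthy LSECs share the 4 healthy samples, so their calls are not independent of each other. Healthy sample 4 decided much of the day 7 result: without it, 17 members were called at day 7 (3.63% of all genes), 15 of them higher, among them Cyp1a2, Cyp2c70, Cyp2d10 and Cyp2e1, and 8 at day 3 (4.43%). The hepatocyte score at day 7 was then 2.94 above healthy LSECs (p = 0.0571, exact permutation test), and its part in these calls was not tested. Without day 7 sample 2, 0 members were called by edgeR at day 7 (0.893% of all genes) and 7 had an unadjusted p under 0.05.

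With the hepatocyte score as a covariate in the same model, 10 members were called at day 3 (7.48% of all genes), 9 lower and 1 higher. Besides Cyp2d22, Cyp2j6, Cyp2j9, Cyp4b1 and Cyp4f18, these were Cyp2c38, Cyp2f2, Cyp2j5, Cyp3a11 and Cyp3a25, all lower at a given hepatocyte score. Healthy samples 1 to 3 scored below every day 3 sample and healthy sample 4 above them all. These differences therefore lean on the fitted slope and on healthy sample 4. Cyp2c38 was without counts in every day 3 sample, and nearly all of its healthy counts were in healthy sample 4. For Cyp3a25 the difference was -1.65 ± 0.32 (SE) (adjusted p = 0.00982), for Cyp2f2 -1.91 ± 0.47 (SE) (adjusted p = 0.028) and for Cyp3a11 -0.94 ± 0.23 (SE) (adjusted p = 0.0296). Cyp2c70 differed by 0.66 ± 0.32 (SE) (adjusted p = 0.23), and Cyp2d26 by -0.36 ± 0.31 (SE) (adjusted p = 0.535). At day 1, 2 members were called in this model (1.06% of all genes), Cyp2j9 at -2.20 and Cyp3a13 at 6.51. Cyp3a13 was at -2.05 (adjusted p = 0.683) without the covariate, its day 1 and healthy samples overlapped, and the score of both day 1 samples lay below that of every other sample, so its value rests on a line drawn beyond the other samples. The model called at day 7 Cyp1a1 at -2.49 and Cyp2d22 at -0.79 (1.51% of all genes). Between day 7 and day 3 it called Cyp1a1 (1.12% of all genes).

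**Figure D5:**
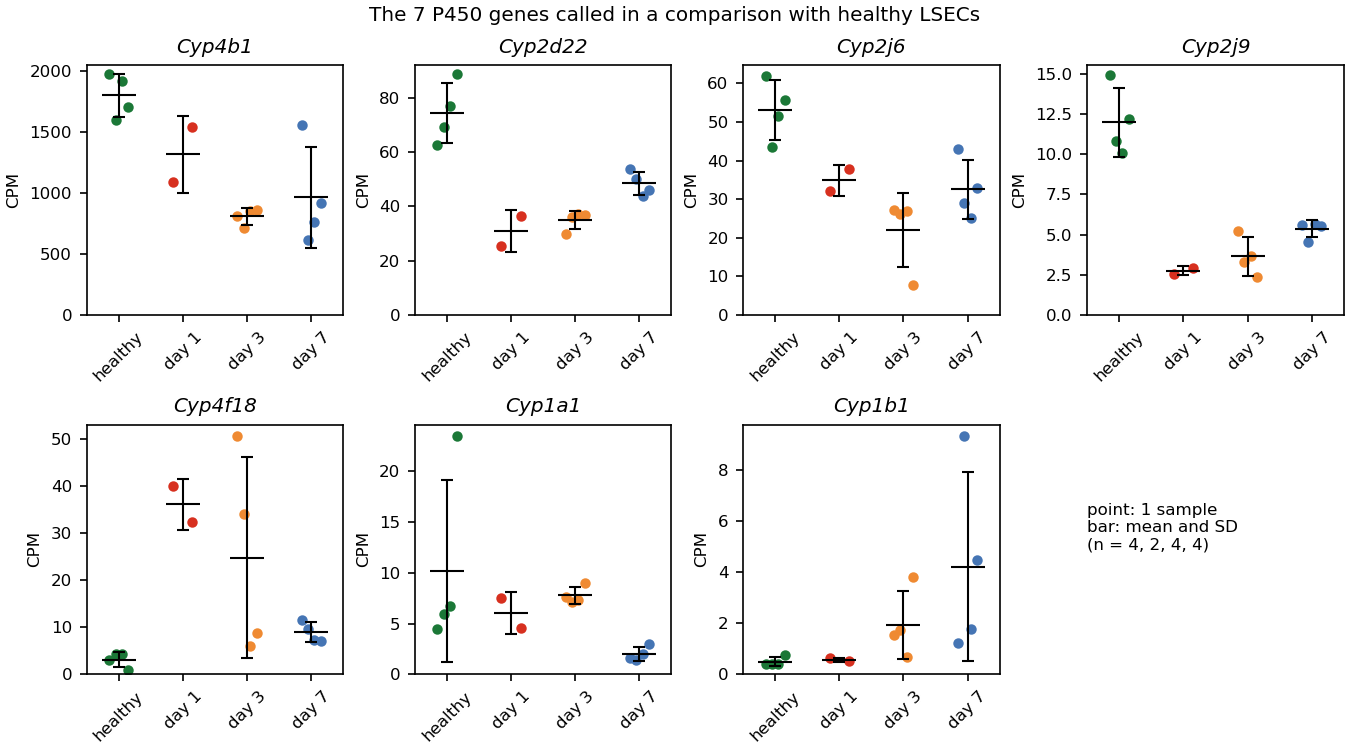
CPM of the 7 members called in a comparison with healthy LSECs, 1 point per sample, with the mean and SD of each group (n = 4, 2, 4 and 4) and each y axis starting at 0. All healthy points lie above all day 3 points for Cyp4b1, Cyp2d22, Cyp2j6 and Cyp2j9, and below them for Cyp4f18.

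Cyp2d22, the member of the mouse Cyp2d group with the lowest slope on the hepatocyte score in that group, had 62.8, 69.3, 77.1 and 88.8 CPM in healthy LSECs, 25.3 and 36.4 CPM at day 1, 29.9, 36.0, 37.1 and 36.7 CPM at day 3, and 53.7, 50.2, 44.0 and 45.97 CPM at day 7. The day 7 samples lay between the healthy and the day 3 samples without overlap. It fell by 1.27 at day 1 (log2, SE 0.21, adjusted p = 0.00476) and by 1.09 at day 3 (SE 0.17, adjusted p = 0.00273), and the change at day 7 was -0.62 ± 0.16 (SE, adjusted p = 0.0589). Its slope of 0.10 (0.01 to 0.19, adjusted p = 0.605) set it apart in value from the other 6 tested Cyp2d genes, whose slopes were called. Scaled to LSEC markers, the day 3 difference was -0.51 (adjusted p = 0.0737).

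Cyp2j6 and Cyp2j9, arachidonic acid oxidising enzymes of the Cyp2j group, were both lower after injury, while Cyp2j5, the other tested member of the group, had a slope of 0.98 on the hepatocyte score. Cyp2j9 had 14.9, 10.8, 10.1 and 12.2 CPM in healthy LSECs, 2.56 and 2.95 CPM at day 1, 5.25, 3.27, 3.69 and 2.35 CPM at day 3, and 5.62, 4.56, 5.69 and 5.54 CPM at day 7, so that no injured sample reached a healthy one. It fell by 2.12 at day 1 (SE 0.35, adjusted p = 0.00388), by 1.72 at day 3 (SE 0.26, adjusted p = 0.00273) and by 1.16 at day 7 (SE 0.26, adjusted p = 0.0292). Leaving out single healthy or day 7 samples took the adjusted p at day 7 to 0.108 at most, and scaling to LSEC markers gave -0.59 (adjusted p = 0.214). With sample numbers as a block, although no label pairs the samples by number, the value was -1.15 (edgeR, adjusted p = 0.0544). Cyp2j6 had 62.0, 43.5, 51.5 and 55.8 CPM in healthy LSECs, 32.1 and 37.7 CPM at day 1, 27.3, 26.1, 26.9 and 7.68 CPM at day 3, and 43.1, 29.0, 25.1 and 32.9 CPM at day 7. Day 3 sample 4 stood well under its group. Cyp2j6 fell by 1.27 at day 3 (SE 0.33, adjusted p = 0.0321), a call that was lost without any of healthy samples 1, 2 and 3 or day 3 sample 2 (adjusted p from 0.0513 to 0.0849), or with scaling to LSEC markers (-0.62, adjusted p = 0.223).

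Cyp4f18, which inactivates leukotriene B4 in neutrophils, was the member that rose at day 1 and at day 3. It had 3.03, 4.28, 4.19 and 0.870 CPM in healthy LSECs, 39.9 and 32.3 CPM at day 1, 50.5, 33.9, 5.89 and 8.74 CPM at day 3, and 11.6, 9.62, 7.34 and 7.13 CPM at day 7. No injured sample was as low as any healthy one, and the day 3 samples fell into a pair near the day 1 level and a pair near the day 7 level. The rise was 3.54 at day 1 (log2, SE 0.72, adjusted p = 0.0129) and 3.00 at day 3 (SE 0.64, adjusted p = 0.0147), and 1.53 ± 0.61 (SE) at day 7 (adjusted p = 0.175). The 8 monocyte and neutrophil markers, which include S100a8 and S100a9, summed to 508.8 to 1369 CPM in healthy LSECs, 7935 and 4172 CPM at day 1, 12370, 7613, 1450 and 1354 CPM at day 3 and 4132 to 9573 CPM at day 7. Both day 3 samples with high Cyp4f18 were those with high markers. Day 7 samples 2 and 3 had 9573 and 9240 CPM of markers, above both day 1 samples, but 9.62 and 7.34 CPM of Cyp4f18, below both. A sum weighs the most abundant markers most. Taken gene by gene, the 8 markers had a median log2 fold change of 3.5 at day 1, 2.61 at day 3 and 1.07 at day 7. Between day 7 and day 3 their median was -1.14, with a range from -3.7 to 0.82. The slope of Cyp4f18 on the mean log2 CPM of these markers within groups was 0.60 (0.41 to 0.79, adjusted p = 0.00165), the only called slope on that score among the 57 members, where 20% of all genes were called. On the stellate cell score edgeR called 0 members (0.188% of all genes, 3 members at an unadjusted p under 0.05). The part of monocyte and neutrophil RNA in the rise was not tested. With the hepatocyte score as a covariate the day 1 difference was 2.46 (adjusted p = 0.254). The gene lies on the strand opposite Zfp961, with an overlap of 181 bases of exon, and whether counting used the strand is not given in the sources used here.

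Cyp1a1 and Cyp1b1, targets of the aryl hydrocarbon receptor (AhR) that oxidise polycyclic hydrocarbons, moved in opposite directions at day 7. Cyp1a1 had 4.49, 5.92, 6.69 and 23.5 CPM in healthy LSECs, 7.51 and 4.601 CPM at day 1, 7.58, 7.16, 7.35 and 8.98 CPM at day 3, and 1.59, 1.40, 1.96 and 2.93 CPM at day 7. All 4 day 7 samples lay below all other samples. It fell by 2.36 at day 7 (log2, SE 0.48, adjusted p = 0.0205), and day 7 against day 3 gave -1.98 ± 0.48 (SE, adjusted p = 0.0549), or -2.13 (adjusted p = 0.027) with the hepatocyte score as a covariate. At day 1 and day 3 the differences from healthy LSECs were -0.75 ± 0.58 (SE, adjusted p = 0.575) and -0.39 ± 0.46 (SE, adjusted p = 0.673). Every day 3 sample lay above healthy samples 1 to 3, and no day 1 sample lay below them all. Healthy sample 4 thus weighs on both signs. Its slope on the hepatocyte score was 0.26 (0.05 to 0.47, adjusted p = 0.459), and -0.15 without healthy sample 4. The call at day 7 was lost without day 7 sample 2 (adjusted p = 0.0815) or sample 3 (adjusted p = 0.0696). It held without healthy sample 4, and the day 7 difference ran from -2.64 to -1.51 when single samples were left out.

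Cyp1b1 had 0.419, 0.388, 0.385 and 0.755 CPM in healthy LSECs, 0.622 and 0.517 CPM at day 1, 1.54, 1.72, 0.677 and 3.8 CPM at day 3, and 1.24, 9.34, 1.76 and 4.49 CPM at day 7. All day 7 samples were above all healthy ones, and they spread from 1.24 to 9.34 CPM. It rose by 3.11 at day 7 (SE 0.67, adjusted p = 0.0261), and the difference at day 3 was 1.99 ± 0.64 (SE, adjusted p = 0.0795). The 11 stellate cell markers summed to 135.4 to 259.6 CPM in healthy LSECs, 98.9 and 112 CPM at day 1, 1310, 1227, 438.4 and 1057 CPM at day 3, and 246.4, 3424, 973.3 and 1698 CPM at day 7, so that the day 7 samples have the same order in these markers as in Cyp1b1, and the day 3 samples do not, since sample 4 was highest in Cyp1b1 and below samples 1 and 2 in the markers. The slope of Cyp1b1 on the stellate cell score was 0.78 (0.32 to 1.25, adjusted p = 0.296), and the part of stellate cell RNA in the result was not tested. The call was lost without any of healthy samples 1, 2 and 3 or day 7 samples 2 and 4 (adjusted p from 0.0593 to 0.0905), and with the hepatocyte score as a covariate (2.67, adjusted p = 0.104).

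The promoters of both genes hold the AhR core GCGTG, which stands in capitals, and that of Cyp1a1 also holds TATAAA in capitals 30 bases before the start. They are printed because AhR sites are the best known control elements of family 1. The core was found in 28.2% of all promoters and in 12 of the 62 members, so its presence is common. In Cyp1a1 (chr9:57697363-57697612, plus strand) it begins 54 bases before the start, and in Cyp1b1 (chr17:79715062-79715311, minus strand) it is read on the other strand, as CACGC, from 76 bases before the start.
Cyp1a1: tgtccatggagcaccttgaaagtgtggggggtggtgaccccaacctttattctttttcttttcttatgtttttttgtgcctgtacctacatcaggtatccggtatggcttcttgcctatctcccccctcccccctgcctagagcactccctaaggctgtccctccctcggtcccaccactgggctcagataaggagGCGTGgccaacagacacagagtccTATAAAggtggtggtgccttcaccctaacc
Cyp1b1: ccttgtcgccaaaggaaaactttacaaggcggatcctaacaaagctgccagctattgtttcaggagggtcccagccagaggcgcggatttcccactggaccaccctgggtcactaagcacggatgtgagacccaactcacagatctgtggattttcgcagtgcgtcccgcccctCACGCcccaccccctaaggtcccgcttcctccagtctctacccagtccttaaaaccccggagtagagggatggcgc

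Of 5 AhR target genes outside the P450 families, 0 were called by edgeR at day 7 (3.18% of all genes) and 3 had an unadjusted p under 0.05. Their log2 fold changes at day 7 ran from -1.21 to 1.82, with a median of -0.77, so they did not share a direction. Nqo1, a quinone reductase, was at -1.21 (log2, adjusted p = 0.0554) and Tiparp, which restrains AhR, at -0.77 (adjusted p = 0.122) at day 7. Tiparp fell by 1.35 at day 3 (adjusted p = 0.01). Ahr itself had mean levels of 194, 156, 146 and 150 CPM in healthy, day 1, day 3 and day 7 LSECs and was not called, with differences from healthy LSECs of -0.32 to -0.41 and adjusted p-values of 0.211 to 0.546.

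Among 6 redox partners of the P450 enzymes, Por, their electron donor, rose by 1.40 at day 1 (adjusted p = 0.0048) and by 0.85 at day 3 (adjusted p = 0.0229), from a mean of 58.3 CPM in healthy LSECs to 154 and 105 CPM. Cyb5a, the cytochrome b5 that supports some P450 reactions, fell by 1.74 at day 1 (adjusted p = 0.0205), and its reductase Cyb5r3 fell by 0.98 (adjusted p = 0.0464). Over all genes tested, 2.42% rose and 1.64% fell at day 1, and 4.62% rose at day 3. None of the 6 had a called slope on the hepatocyte score (edgeR, 1 at an unadjusted p under 0.05). Of 11 receptors and regulators that sense foreign compounds and lipids, 5 had called slopes above 0 (2.32% of all genes). Among these were the P450 regulators Hnf4a (0.86), Ppara (1.03) and Nr1i2, the pregnane X receptor (1.16), whereas Nr1i3, the constitutive androstane receptor, had a slope of 0.01 with mean levels of 9.44 to 13.1 CPM in all groups. Of 9 enzymes that make or clear eicosanoids, 2 rose and 1 fell at day 1 (2.42 and 1.64% of all genes). At day 3, 2 rose and 1 fell (4.62 and 2.58% of all genes), and 2 rose at day 7 (2.19%). Ptgs2, an inducible prostaglandin synthase, rose by 3.35 at day 1 (adjusted p = 0.00276), 3.35 at day 3 (adjusted p = 0.00211) and 2.73 at day 7 (adjusted p = 0.00961). Alox5, which starts leukotriene synthesis, rose by 2.80 at day 1 (adjusted p = 0.0205), and Tbxas1, the thromboxane synthase, by 1.38 at day 3 (adjusted p = 0.00906) and 1.32 at day 7 (adjusted p = 0.0204). The summed monocyte and neutrophil markers were higher at the same times, as given for Cyp4f18, and their part in these rises was not tested. Ephx1, which hydrolyses epoxides, fell by 2.01 at day 1 (adjusted p = 0.0162), Ptgs1 fell by 0.92 at day 3 (adjusted p = 0.0105), and Ephx2, the soluble epoxide hydrolase, had a slope of 1.14 on the hepatocyte score. Of 12 conjugating enzymes 10 had called slopes, against 2.33% of all genes.

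Cyp2r1, the vitamin D 25-hydroxylase, and Cyp2u1, a fatty acid hydroxylase, were low and uncalled. Cyp2r1 was at 1.04 to 2.31 CPM in healthy LSECs, 0.239 and 0.539 CPM at day 1, 0 to 1.55 CPM at day 3 and 0.463 to 1.03 CPM at day 7, with a slope of 0.27 (-0.24 to 0.78). Cyp2u1 was at 0.670 to 4.83 CPM in healthy LSECs and at 0.275 and 0.395 CPM at day 1, with a slope of 0.39 (0.13 to 0.65, adjusted p = 0.211). Of the 18 members that did not pass the filter, Cyp2b23, Cyp2c66, Cyp2j7, Cyp2j11, Cyp2j12 and Cyp3a57 were under 3 counts in every sample, and the other 12 reached at most 43 counts in a sample.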

How the data were processed

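RNA of sorted LSECs was measured in 14 samples. Per the labels and methods, libraries were made with the SMARTseq v4 kit and read from both ends, STAR placed the reads on GRCm38.p6, and StringTie followed. The deposited values are whole, unnormalized read counts for each Ensembl gene. The annotation release and strand setting are not given in the sources used here, so counts of overlapping genes and close paralogs are uncertain. Groups came from the sample titles. All sample columns were used.

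Symbols, exon lengths and overlaps came from GENCODE vM21, which held 54495 of the 54524 genes. Genes were filtered by group (filterByExpr, minimum count 10, minimum total 15), which left 26626, and tested with edgeR 4.0.16 in R 4.3.3 (TMM scaling, quasi-likelihood, 4 group means, Benjamini-Hochberg over all genes tested, threshold 0.05). Each SE was obtained from the fold change and its F statistic. Log2 CPM used a prior count of 2. The slope model adds the hepatocyte score, with 95% intervals. For ratios and scores, exact permutation tests (two-sided) were run. Members, lists and tests were chosen with earlier results of these data known. Named with values were members called in any comparison, the 10 with the highest CPM per kb, the 5 largest and 5 smallest slopes, and Cyp1a1, Cyp1a2, Cyp1b1, Cyp2e1, Cyp2r1 and Cyp2u1 for their function. Values of Cyp2j5, Cyp4v3 and Cyp4a32 are given although they fall outside that rule, a choice made after the values were seen. Promoters are RefSeq's for GRCm38.p6. Alternatives were DESeq2 1.42.0, limma 3.58.1 voom, other scalings and filters, a covariate, a block and leaving out samples. Scaling to LSEC markers and slopes on scores of other cells were chosen after seeing the data. The models were tested on simulated counts.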

Additional observations from a re-analysis of the deposited data

Results flagged for a closer look

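In groups of 4 samples, 72 sets of values (log2 CPM of the named members, the hepatocyte score and the ratio of Cyp2e1 to Alb, without sets that hold a level of 0) were checked for a sample far from the other 3, and 8 had a gap of over 0.829 of the group's range. Chance alone gives about 1 in 20 such sets. In healthy LSECs, sample 4 was high for Cyp3a11 (gap of 0.898 of the range), Cyp2r1 (0.876), Cyp1b1 (0.874), Cyp2f2 (0.854) and Cyp2c70 (0.83). At day 3, sample 1 was low for Cyp2d22 (0.856) and sample 4 was low for Cyp2j6 (0.967). At day 7, sample 2 was low for Cyp2j9 (0.882).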

How the results depend on the processing

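The count of called members depended on the tool, the scaling, the covariate and single samples. DESeq2 called 26 at day 1, 8 at day 3, 5 at day 7 and 1 between day 7 and day 3, and limma voom 25 at day 7 and 7 between day 7 and day 3. Scaling to hepatocyte markers gave 0 calls by edgeR at day 3 and day 7 (10 and 15 at an unadjusted p under 0.05), and turned Cyp2d22 (1.38) and Cyp2j9 (0.52) upward at day 1. Under that scaling the median of all genes at day 1 was 2.66, against -0.03, so these signs follow the scaling. Scaling to LSEC markers gave 3 at day 3, models of the 2 groups alone gave 3 at day 3 and 5 at day 7, and the hepatocyte covariate gave 10 at day 3 and 1 between day 7 and day 3. With at least 10 counts in every sample, 11 of the 23 members then tested were called on the slope, against 430 of 16311 genes. Leaving out single samples gave 0 to 4 calls at day 1, 4 to 8 at day 3, 0 to 17 at day 7, 0 to 1 between day 7 and day 3, and 9 to 33 on the slope. At day 7, the 0 and 17 stood against 236 of 26420 and 962 of 26477 genes. On the slope, the 9 and 33 stood against 142 of 26477 and 829 of 26443 genes. Without single samples, the log2 ratio of Cyp2e1 to Alb spanned -0.88 to 1.39 for day 1, -2.35 to -1.01 for day 3 and 0.74 to 2.08 for day 7. These were against healthy LSECs, and day 7 against day 3 spanned 2.90 to 3.26. The hepatocyte score difference spanned -4.62 to -2.42, 0.48 to 2.22, 1.20 to 2.94 and 0.31 to 1.26 in that order. Against periportal markers in place of Alb, Cyp2e1 was at -2.42 at day 1 (p = 0.2), and against all hepatocyte markers at 1.90 at day 7 (p = 0.0286, exact permutation tests). Slopes near 0 changed sign with 1 intercept for Cyp2j9 (0.02), Cyp2j6 (-0.02), Cyp4b1 (-0.07) and Cyp2t4 (0.12), and leaving out single samples gave -0.06 to 0.02 for Cyp2j9, -0.15 to 0.32 for Cyp1a1, -0.23 to 0.25 for Cyp2t4 and -0.05 to 0.04 for Cyp4f16. On the monocyte and neutrophil score, 1 to 2 members were called, and on the stellate and LSEC scores edgeR called 0 (3 and 4 at an unadjusted p under 0.05). The causes were not tested.

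No label pairs samples of different groups by number, and the levels showed no such pairing. The 18 pairs with the same number had correlations of -0.232 to 0.096, and 0 of 14 samples correlated best with its own number. The group mean was taken off first, which makes the 2 day 1 samples mirror each other, so a pairing there could be missed. A replicate block by number gave 1 call between day 7 and day 3 (244 of 26626 genes) and 16 on the hepatocyte slope (405 genes). On the monocyte and neutrophil slope edgeR then called 0 members (268 genes, 3 members at an unadjusted p under 0.05). The slopes on the hepatocyte score were 0.04 for Cyp2j9, 0 for Cyp1b1 and 0.01 for Cyp4f16. The block took the day 7 call of Cyp2j9 (-1.15, adjusted p = 0.0544, edgeR), and the counts at day 1, day 3 and day 7 stayed within 1.5 times.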
